A study of Mus musculus with 8 samples.

Results

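The genes described here encode the nuclear-encoded subunits of the 5 complexes of oxidative phosphorylation. They were taken from the array annotation by symbol: every gene starting with Ndufa, Ndufb, Ndufc, Ndufs, Ndufv, Uqcr, Cox4, Cox5, Cox6, Cox7, Cox8 or Atp5 (assembly factors named Ndufaf left out), and Sdha, Sdhb, Sdhc, Sdhd and Cyc1. Of 89 such symbols, 80 had a probe set (probes read together as 1 measurement) naming that gene alone, and the one with the highest mean over the 8 arrays stood for the gene. The 80 genes, of 12393 measured in the same way, comprised 34 of complex I, 4 of complex II, 9 of complex III, 16 of complex IV and 17 of complex V. The other 9 symbols (Ndufa11, Ndufa11b, Ndufab1-ps, Ndufb4, Ndufb4b, Ndufb4c, Ndufs5-ps, Ndufs6 and Ndufs6b) occurred only in probe sets shared by several genes and were not used. The mean levels of the 80 genes ran from 4.44 to 13.00 on the log2 scale, with a median of 9.42, and 3 lay under the median of all probe sets, 6.13.

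The arrays carried RNA of splenic CD4 T cells, isolated by fluorescence-activated sorting, of female mice aged 8 to 12 weeks, with 4 animals pooled per array. Ahr knockout mice (KO), bred back to C57BL/6 and lacking the aryl hydrocarbon receptor, were compared with C57BL/6 wild type mice (WT). Both were given TCDD, a dioxin that binds this receptor, at 10 µg/kg, or DMSO, both in corn oil by intraperitoneal injection, 24 h before they were killed. This gave 4 groups with 2 arrays each, numbered 1 and 2: KO and WT after DMSO, and KO and WT after TCDD. The labels call these biological duplicates, and the p-values measure the spread between pools. Where KO and WT are compared over all 8 arrays, this spread also takes in any difference between TCDD and DMSO arrays of a genotype. The labels name no deletion limited to T cells. In bulk RNA a change in the mix of cells and a change within cells cannot be told apart. The free-text description of WT TCDD number 1 names knockout mice, against its title, source and strain, and it was used as WT. The members called between KO and WT are also given without it. Some differences of single genes are given only with this array and depend on it. These are TCDD in WT, the interaction of genotype and TCDD, and KO against WT in TCDD. The gaps between the 2 WT TCDD arrays depend on it as well.

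Oxidative phosphorylation takes place in the inner mitochondrial membrane. Complex I (NADH dehydrogenase) and complex II (succinate dehydrogenase) pass electrons to ubiquinone, complex III passes them on to cytochrome c and complex IV (cytochrome c oxidase) to oxygen, while complexes I, III and IV pump protons. Complex V, the ATP synthase, uses the proton gradient to make ATP. Naive T cells depend largely on this respiration, and activated T cells add aerobic glycolysis to it.

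The 2 Ahr probe sets read 6.74 ± 0.26 and 6.52 ± 0.23 in KO and 6.21 ± 0.10 and 6.48 ± 0.14 in WT (log2, SD, n = 4 each), close to the median of all probe sets. The first read higher on every KO array (6.49 to 7.08) than on any WT array (6.11 to 6.29), against what the knockout label would give if its probes lay in the deleted part. The labels do not say where they lie, so Ahr does not check them, and KO and WT stand throughout for arrays labelled so. The markers of CD4 T cells were present on all arrays. For Cd4 the KO arrays averaged 8.16 ± 0.09 and the WT arrays 8.37 ± 0.28, while for Cd3e the means were 9.36 ± 0.17 and 9.53 ± 0.09 (SD, n = 4). Of 7 such markers, 2 read higher and 5 lower in KO, with differences from -0.36 to 0.90 and 0 called (limma, adjusted p under 0.05). For TCDD in WT, 3 of the 7 had an unadjusted p under 0.05 (limma), beside 2.99% of all genes, and 0 were called. Markers of myeloid and dendritic cells were higher in KO, with 10 of 18 called (limma, adjusted p under 0.05). This was 55.6%, against 1.9% of all genes called higher. Their summed linear level was 7244 to 11023 on KO arrays and 3655 to 6651 on WT arrays, and none of the 18 was at 0. The sums for 9 B cell markers (679 to 937 in KO, 579 to 734 in WT), for 9 NK and CD8 T cell markers (1144 to 1827 and 902 to 1323) and for 3 erythroid markers (266 to 324 and 224 to 290) overlapped between genotypes. Of these markers, 1 of the 9 B cell genes (Fcrla, difference 0.61, limma, adjusted p = 0.0404) and 1 of the 9 NK and CD8 T cell genes (Nkg7, difference 1.38, limma, adjusted p = 0.0214) rose in KO, or 11.1% of each list. Lower on all KO arrays than on any WT array were 3 of the 9 NK and CD8 T cell genes (33.3%) and 1 of the 9 B cell genes (11.1%), against 6.71% of all genes. Higher on all KO arrays were 1 (11.1%) and 2 (22.2%) of them, against 6.28%. RNA quality was read from the actin controls, as the log2 level at the 3′ end minus that at the 5′ end, which widens as RNA degrades. It was 3.48 to 3.82 in KO, 2.90 and 3.30 on WT DMSO and WT TCDD number 2, and 3.70 and 4.56 on the corresponding arrays numbered 1. The first principal component of all probe sets (52.1% of the variance) put the WT arrays numbered 2 at 49.21 and 40.35, apart from all others. The WT arrays numbered 1 lay at 9.10 (DMSO) and -2.04 (TCDD) and KO DMSO number 1 at -5.2. KO DMSO number 2, KO TCDD number 1 and KO TCDD number 2 lay at -36.22, -29.19 and -26.02. The part of the myeloid markers and of RNA quality in the results was not tested, other than by the fits named beside them.

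The promoters of 4 members are shown because 3 of them belong to genes that differed between genotypes and the other, Sdha, holds several matches to a motif known from respiratory genes. It was added after the matches were counted. The windows are from RefSeq (GRCm38.p6) and are written 5′ to 3′ on the strand of the gene, from 250 bases before the start to 30 after it. Capitals mark matches to the motifs searched on both strands: the NRF1 core (site of nuclear respiratory factor 1), CCGGAAG (core of the ETS site that GABP binds), AAGATGGCG (core of the YY1 site) and AAGGTCA (the site of the estrogen-related receptors, ERR). Matches of different motifs could overlap.

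Atp5md, chr19:47090618-47090897, minus strand: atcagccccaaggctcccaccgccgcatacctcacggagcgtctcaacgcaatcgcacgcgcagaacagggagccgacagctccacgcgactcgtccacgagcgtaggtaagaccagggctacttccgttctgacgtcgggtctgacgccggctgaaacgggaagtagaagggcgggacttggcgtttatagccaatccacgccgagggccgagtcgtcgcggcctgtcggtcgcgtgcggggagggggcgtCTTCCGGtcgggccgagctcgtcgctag
Ndufa3, chr7:3617123-3617402, plus strand: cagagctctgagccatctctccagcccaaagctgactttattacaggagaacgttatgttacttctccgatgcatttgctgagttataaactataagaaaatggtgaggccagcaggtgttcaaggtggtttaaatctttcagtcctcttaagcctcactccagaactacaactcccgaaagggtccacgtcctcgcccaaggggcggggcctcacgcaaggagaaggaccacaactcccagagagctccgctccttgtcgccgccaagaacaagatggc
Uqcr10, chr11:4704315-4704594, minus strand: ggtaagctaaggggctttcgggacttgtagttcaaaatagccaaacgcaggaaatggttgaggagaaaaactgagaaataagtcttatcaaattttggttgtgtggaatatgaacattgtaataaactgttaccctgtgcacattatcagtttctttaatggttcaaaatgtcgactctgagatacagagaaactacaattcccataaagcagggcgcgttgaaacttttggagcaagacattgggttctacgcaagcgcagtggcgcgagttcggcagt
Sdha, chr13:74350211-74350490, minus strand: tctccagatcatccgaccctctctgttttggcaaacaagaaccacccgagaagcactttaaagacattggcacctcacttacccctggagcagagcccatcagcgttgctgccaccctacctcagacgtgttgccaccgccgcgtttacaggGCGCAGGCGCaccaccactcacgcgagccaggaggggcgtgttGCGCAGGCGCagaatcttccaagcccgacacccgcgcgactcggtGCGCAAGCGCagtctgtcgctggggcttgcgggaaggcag

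Atp5md held 1 ETS match, on the opposite strand, and Sdha 3 NRF1 matches, while the windows of Ndufa3 and Uqcr10 held none of the 4 motifs in these letters. Of the 80 genes, 65 had a window in the table (70 windows, from 250 bases before the start to 50 after it). The NRF1 core was in 21.4% of these windows and in 4.6% of all 32851 windows of the same length, the ETS core in 24.3% and 8.86%, the YY1 core in 8.57% and 1.4%, and the ERR site in 10.0% and 4.72%. The NRF1 or the ETS core was in a window of 27 of the 65 genes. A match describes the letters and shows no binding.

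The first comparison asked how the subunit genes differed between KO and WT over all 8 arrays, 4 against 4, with TCDD and DMSO arrays pooled, as the series' design text describes for this comparison. Of the 80 genes, 3 were higher in KO and 1 was lower: Ndufa3, Uqcr10 and Uqcrb rose and Atp5md fell (limma, adjusted p under 0.05 by Benjamini-Hochberg over 22626 probe sets; such genes are termed called). Among all 12393 genes, the share called was 1.9% higher and 1.33% lower, or 3.24% in all, against 5% of the subunit genes. The members' count lay near this background. At an unadjusted p under 0.05 there were 26 of the 80 (19 higher, 7 lower) and 22.2% of all genes. Of the 80 genes, 51 read higher in KO and 29 lower, with a median difference of 0.11 on the log2 scale, beside 0.01 over all genes, of which 50.6% read higher. Leaving out 1 array gave medians of 0.04 (without KO TCDD number 1) to 0.15 and 46 to 56 genes higher. Several probe sets were present for 44 of the genes, and for 15 of these they differed in sign between KO and WT. The counts of direction thus depend on the probe set chosen. The KO and WT arrays did not overlap for 15 of the genes, 10 higher in KO (12.5%, against 6.28% of all genes) and 5 lower (6.25%, against 6.71%).

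**Figure D1:**
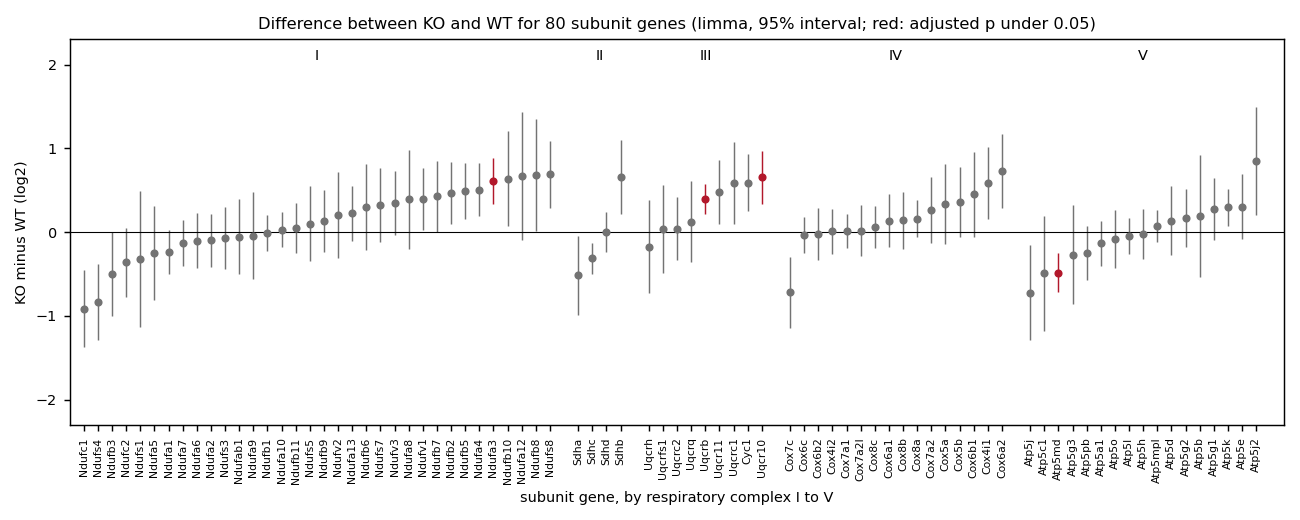
Each point is the KO minus WT difference (log2) of 1 subunit gene with its 95% interval from limma (4 arrays per genotype), ordered within complexes I to V; red marks an adjusted p under 0.05. The 4 red genes are Ndufa3, Uqcrb and Uqcr10 above 0 and Atp5md below 0, and most other intervals cross or nearly reach 0.

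Ndufa3, a small accessory subunit of complex I, read 11.05 and 10.94 in KO DMSO, 11.32 and 10.93 in KO TCDD, 10.65 and 10.34 in WT DMSO and 10.54 and 10.28 in WT TCDD (arrays 1 and 2, log2). Every KO array lay above every WT array. The difference was 0.61 (SE 0.12; 1.52-fold; limma, adjusted p = 0.0404). A two-sided exact permutation test gave p = 0.0286, the least that the 70 arrangements of 4 against 4 allow. Its other probe set rose as well, by 0.71 (limma, adjusted p = 0.0355). Without both WT arrays numbered 2 the difference was 0.47 and was not called (limma, adjusted p = 0.209).

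Uqcr10, one of the smallest subunits of complex III, read 9.10 and 9.12 in KO DMSO, 9.45 and 9.12 in KO TCDD, 8.62 and 8.17 in WT DMSO and 8.73 and 8.64 in WT TCDD. The genotypes did not overlap, and WT DMSO number 2 was the lowest array. The difference was 0.66 (SE 0.14; 1.58-fold; limma, adjusted p = 0.0471; exact permutation p = 0.0286). Its other 2 probe sets differed by 0.42 and 0.34 and were not called.

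Uqcrb, a subunit of complex III near the ubiquinone binding site, read 13.11 and 13.14 in KO DMSO, 13.19 and 13.37 in KO TCDD, 12.71 and 12.87 in WT DMSO and 12.82 and 12.83 in WT TCDD. Again no WT array reached a KO array, although the difference was small, 0.40 (SE 0.08; 1.31-fold; limma, adjusted p = 0.0445; exact permutation p = 0.0286). The other Uqcrb probe set read 8.59 in KO and 8.60 in WT, so the 2 probe sets of this gene did not give the same reading.

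Atp5md, a small membrane subunit of the ATP synthase also known as DAPIT, read 7.65 and 7.31 in KO DMSO, 7.51 and 7.24 in KO TCDD, 7.97 and 7.85 in WT DMSO and 7.99 and 7.84 in WT TCDD. All KO arrays lay below all WT arrays. The difference was -0.49 (SE 0.10; 1.4-fold lower; limma, adjusted p = 0.0476; exact permutation p = 0.0286), and this gene had a single probe set.

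**Figure D2:**
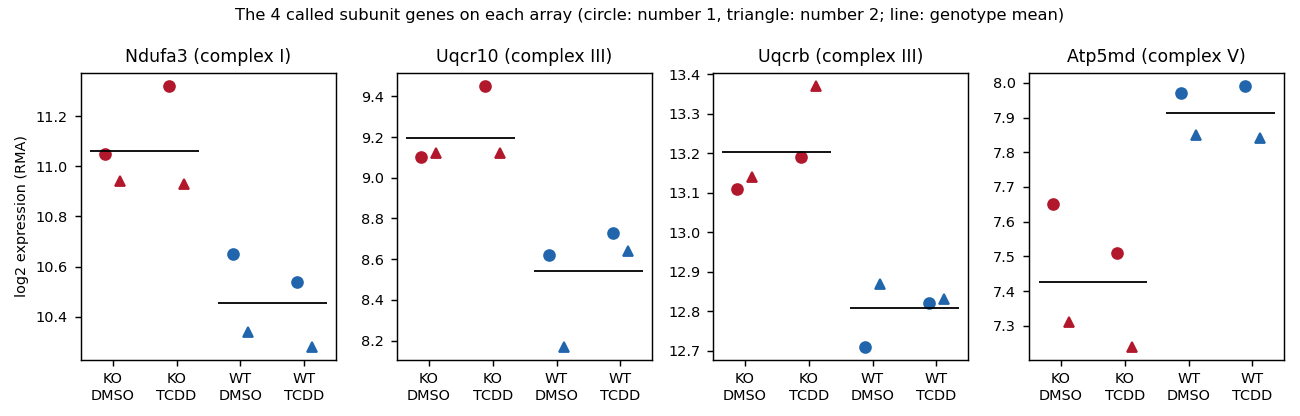
Log2 expression on each array of the 4 subunit genes called between KO and WT; circles are arrays numbered 1, triangles arrays numbered 2, red KO, blue WT, and lines the mean of each genotype. KO and WT arrays do not overlap in any panel. For Uqcr10, WT DMSO number 2 (8.17) lies apart from the other WT arrays (8.62 to 8.73). The scales differ between panels and do not start at 0.

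All 4 adjusted p-values lay just under 0.05, between 0.0404 and 0.0476. Leaving out a single array left 0 to 2 members called: 0 without KO DMSO number 2, KO TCDD number 1, KO TCDD number 2, WT DMSO number 2 or WT TCDD number 2, 1 without KO DMSO number 1 (Atp5md) or WT DMSO number 1 (Ndufa3), and 2 without WT TCDD number 1 (Uqcr10 and Atp5j). The share of all genes called is not given for the fits with a single array left out. Whether the fewer calls were particular to the subunit genes therefore cannot be read from these counts. Without both WT arrays numbered 2, 0 members were called, as were 0.137% of all genes. At an unadjusted p under 0.05 there were 21 members (26.2%) and 15.2% of all genes in that fit.

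Within complex I, 20 of 34 genes read higher in KO and 14 lower (median 0.12), and Ndufa3 was the 1 called. Ndufs8, a core iron-sulphur subunit, read 10.62, 10.57, 11.23 and 10.97 in KO and 10.32, 9.99, 10.41 and 9.90 in WT (DMSO 1 and 2, then TCDD 1 and 2). The groups did not overlap, but the difference of 0.69 (SE 0.18) was not called (limma, adjusted p = 0.074). Ndufs8 had 6 probe sets, all higher in KO without overlap, by 0.38 to 1.11, and 2 of them were called (0.78, limma, adjusted p = 0.0192, and 0.38, limma, adjusted p = 0.0487). One of the 4 Ndufa12 probe sets was called too (0.69, limma, adjusted p = 0.0388). The brightest Ndufa12 probe set, which stood for this accessory subunit, differed by 0.67 with overlap (limma, adjusted p = 0.307). Its WT TCDD number 2 array read 8.82 and its other WT arrays 9.96 to 10.31. Ndufb8, an accessory subunit of the membrane arm, differed by 0.69 (limma, adjusted p = 0.235), with KO arrays from 8.77 to 9.95 and WT arrays from 8.01 to 9.08.

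At the other end of complex I were Ndufc1, a small membrane-arm subunit, and Ndufs4, an accessory subunit of the peripheral arm whose loss impairs assembly. Ndufc1 read 8.28, 7.66, 8.58 and 8.25 in KO and 8.87, 9.47, 9.14 and 8.94 in WT in the same order. This was a difference of -0.91 (SE 0.20; limma, adjusted p = 0.0546) without overlap. Ndufs4 read 6.98, 6.27, 6.92 and 6.96 in KO and 7.71, 7.91, 7.66 and 7.20 in WT, a difference of -0.84 (SE 0.20; limma, adjusted p = 0.0622), also without overlap. Neither passed the threshold, although their differences were larger than that of Ndufa3.

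The 4 genes of complex II did not move together, and 0 were called. Sdhb, the iron-sulphur subunit, read 9.80, 9.48, 10.20 and 10.24 in KO and 9.21, 9.54, 8.93 and 9.39 in WT (difference 0.66, limma, adjusted p = 0.103). Sdha, the flavoprotein that oxidises succinate, read 9.62, 9.10, 8.92 and 9.11 in KO and 9.58, 9.76, 9.30 and 10.18 in WT (difference -0.52, limma, adjusted p = 0.202). Sdhc, a membrane anchor, read 7.61 to 7.85 in KO and 7.94 to 8.16 in WT without overlap (difference -0.32, SE 0.08; limma, adjusted p = 0.0795). Sdhd, the other anchor, differed by 0.01 with a 95% interval from -0.23 to 0.24 at the probe set chosen. With all its probe sets averaged the difference was -0.31, so this reading depends on the probe set.

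Complex III had the highest median difference of the 5 complexes. Of its 9 genes 8 read higher in KO, with a median of 0.40, and 2 were called; 4 of the 9 (44.4%, against 6.28% of all genes) lay higher on all KO arrays than on any WT array. These were Uqcr10, Uqcrb, Uqcr11 and Cyc1. Cyc1, the cytochrome c1 subunit, read 10.16, 10.12, 10.53 and 10.58 in KO and 9.92, 9.93, 9.46 and 9.72 in WT (difference 0.59, SE 0.15; limma, adjusted p = 0.0719). In the model of 4 group means Cyc1 was the 1 member called between genotypes. Uqcrh, the hinge protein that contacts cytochrome c1, was the 1 gene of complex III to read lower (-0.18, limma, adjusted p = 0.747), and it read 0.23 higher without both WT arrays numbered 2. The median of complex III was 0.19 when all probe sets of a gene were averaged, and 0.44 without both WT arrays numbered 2.

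In complex IV 13 of 16 genes read higher in KO, with a median of 0.14 and 0 called. Cox4i1, the widespread form of subunit 4, read 12.26, 11.99, 12.67 and 12.39 in KO and 12.06, 11.84, 11.78 and 11.29 in WT (difference 0.59, limma, adjusted p = 0.13). Cox7c, a small nuclear-encoded subunit, read 6.52, 6.28, 5.91 and 6.40 in KO and 6.69, 7.11, 6.77 and 7.41 in WT (difference -0.72, SE 0.19; limma, adjusted p = 0.077). The next lowest gene, Cox6c, differed by -0.03. Cox6a2 had the largest positive difference of the complex. It is the heart and muscle form of subunit 6a and is also found in plasmacytoid dendritic cells. It read 7.34, 7.36, 7.48 and 7.91 in KO and 6.69, 6.35, 6.98 and 7.17 in WT, a difference of 0.73 (SE 0.20; limma, adjusted p = 0.0843) without overlap. Irf8, a factor of dendritic and myeloid cells, read 9.61, 9.75, 9.13 and 10.10 in KO and 7.44, 6.07, 6.92 and 6.28 in WT. KO TCDD number 2 was the highest array for both genes and for the summed myeloid markers. In contrast, KO TCDD number 1 read above both KO DMSO arrays for Cox6a2 but was the lowest KO array for Irf8 and for the summed markers (7244). Among WT arrays, TCDD number 2 was the highest for Cox6a2 and the summed markers (6651), and DMSO number 1 for Irf8. The part of Irf8 and of these cells in the Cox6a2 reading was not tested.

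The other tissue forms of complex IV subunits did not separate the genotypes. Cox4i2 (lung) read 5.82 to 6.37, Cox6b2 (testis) 5.41 to 6.06, Cox7a1 (heart and muscle) 4.29 to 4.61, Cox8b (muscle and brown fat) 6.22 to 7.03 and Cox8c (testis) 8.07 to 8.47 over all 8 arrays. Their differences were 0.01, -0.02, 0.01, 0.14 and 0.06, and the signs of all 5 turned in some alternative fit. Of the widespread forms, Cox6a1 differed by 0.14 (limma, adjusted p = 0.647), Cox6b1 by 0.45 (0.305), Cox7a2 by 0.27 (0.447) and Cox8a by 0.16 (0.395). The other Cox6b1 probe set differed by 0.56 without overlap (limma, adjusted p = 0.0885). Of the other Cox8a probe sets, one differed by 0.20 without overlap and one by -0.18 with overlap, neither called.

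In complex V, 8 of 17 genes read higher and 9 lower in KO (median -0.02), and Atp5md was the 1 called. Atp5j2, a membrane subunit, read 10.36, 10.08, 11.16 and 10.78 in KO and 10.07, 9.70, 10.11 and 9.11 in WT, a difference of 0.85, the largest positive one of all 80 genes (SE 0.28; limma, adjusted p = 0.139), yet with overlap. The other Atp5j2 probe set differed by 0.66 without overlap and was not called (limma, adjusted p = 0.118). Atp5e, a subunit of the catalytic part, differed by 0.31 (limma, adjusted p = 0.367). Atp5j, coupling factor 6 of the stalk, read 9.62, 9.25, 9.18 and 9.47 in KO and 9.93, 10.58, 9.40 and 10.5 in WT (difference -0.72, limma, adjusted p = 0.151). Atp5c1, the rotating gamma subunit, differed by -0.49 (limma, adjusted p = 0.409), with KO TCDD number 1 at 9.96 and WT TCDD number 2 at 11.63 as its extremes.

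**Figure D3:**
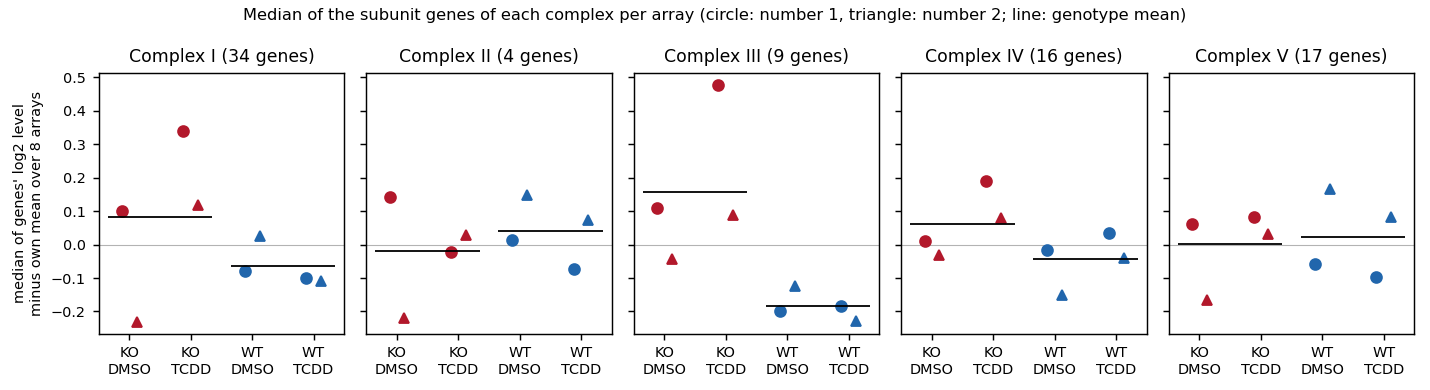
For each complex, the median over its genes of the log2 level minus the gene's own mean over 8 arrays, per array; circles are arrays numbered 1, triangles numbered 2, red KO, blue WT, lines genotype means. In complex III the WT arrays lie between -0.23 and -0.12 and the KO arrays between -0.04 and 0.48; in the other complexes KO and WT arrays overlap, and KO DMSO number 2 is the lowest KO array in all 5.

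The subunit genes differed between arrays of a group as well as between groups. Their median within-group SD was 0.24 and the median range over 8 arrays 0.98 (log2), beside 0.18 and 0.58 over all genes; the subunit genes were also brighter (median level 9.42 against 6.52). KO TCDD number 1 was the highest array for 36 of the 80 genes, while KO DMSO number 2 was the lowest for 20, WT TCDD number 2 for 19 and WT TCDD number 1 for 16. In both KO groups the array numbered 2 read below number 1 for most genes. Number 2 was the higher of the pair for 17 of 80 genes in KO DMSO (3 of 34 in complex I) and for 23 of 80 in KO TCDD (7 of 34). Over all 12393 genes it was the higher for 5677 in KO DMSO and 5857 in KO TCDD. In both treatments together, 47 genes were lower on the KO array numbered 2 and 7 were higher, and in complex I these counts were 24 and 0.

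The 2 arrays of a WT group also differed, upward for some subunit genes and downward for others. Number 2 was the higher for 48 of the 80 in WT DMSO and 42 in WT TCDD, beside 4878 and 5042 of all 12393 genes. Over all probe sets these gaps correlated by 0.626 between the WT groups, so they were not particular to the subunit genes. In both treatments, 37 subunit genes read higher on the WT array numbered 2 than on number 1, 27 read lower, and 16 differed in sign or were equal. Counts over both treatments together were not made for all genes. Ndufs1, the largest core subunit of complex I, was 1.14 higher on number 2 in DMSO and 1.53 higher in TCDD. Uqcrfs1, the Rieske iron-sulphur protein, was 0.63 and 1.05 higher, Atp5j 0.65 and 1.10, and Uqcrh 0.72 and 0.88. In contrast, Ndufb8 was 0.39 and 1.07 lower (-0.39 and -1.07), and Atp5j2 (-0.37 and -1.0), Uqcrc1, a core subunit of complex III (-0.56 and -0.73), and Ndufb10, a membrane-arm subunit (-0.31 and -0.83), were lower too. Of the complex V genes, 11 of 17 were higher and 4 lower on the WT arrays numbered 2, and of complex IV 3 of 16 were higher and 7 lower.

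**Figure D4:**
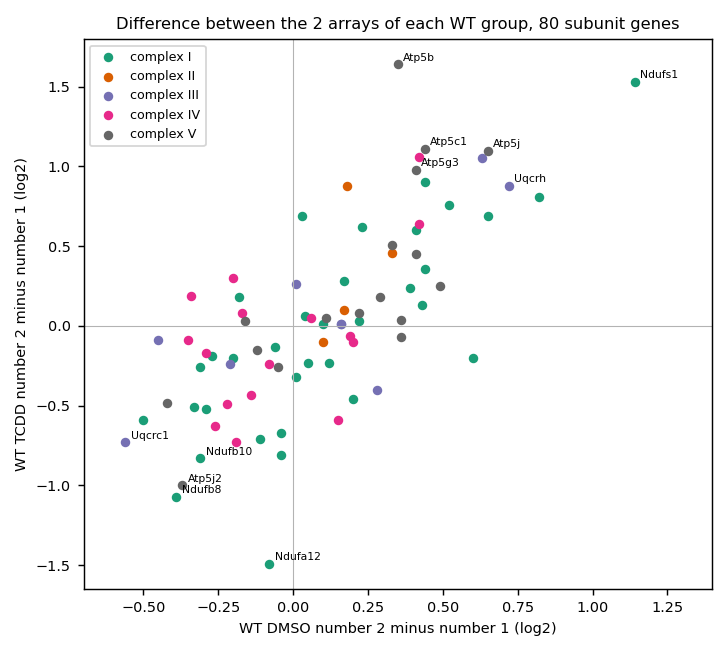
Each point is 1 subunit gene, coloured by complex; the axes give the log2 difference between arrays numbered 2 and 1 in WT DMSO (horizontal) and WT TCDD (vertical). 37 genes lie above 0 on both axes, with Ndufs1 farthest right at 1.14 and 1.53, and 27 lie below 0 on both, among them Ndufb8 and Atp5j2.

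The next comparison asked whether TCDD changed these genes within a genotype, in a model of the 4 group means with 2 arrays each. In WT, 0 of the 80 genes were called, as were 0% of all genes (limma, adjusted p of 0.997 or more). At an unadjusted p under 0.05 there were 3 of 80 (Ndufa4, Cyc1 and Cox6a2), and 2.99% of all genes. Of the 80 genes, 28 read higher and 50 lower after TCDD, with a median of -0.06 (all genes 0.03). Both TCDD arrays lay above both DMSO arrays for 3 genes (3.75%, against 19.8% of all genes) and below for 13 (16.2%, against 10.2%). The lowest values were those of Ndufb6 (-0.53, SE 0.25), Ndufa8 (-0.52, SE 0.32) and Ndufa12 (-0.44, SE 0.44), all of complex I. The largest positive values were Cox6a2 (0.56, SE 0.19), Cox4i2 (0.32, SE 0.14) and Uqcr10 (0.29, SE 0.18). Cyc1 differed by -0.34 (SE 0.12).

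In KO, which lacks the receptor, 0 of 80 genes were called after TCDD (0% of all genes; limma, adjusted p of 1 after rounding), while 9 had an unadjusted p under 0.05 (1.94% of all genes). Most of the genes nevertheless read higher on the TCDD arrays: 63 of 80, with a median of 0.18, beside 57.1% and 0.03 over all genes. In complex I this was 30 of 34 genes with a median of 0.31, in complex III 8 of 9 (0.29), and in complex V 11 of 17 (0.05). Both KO TCDD arrays lay above both KO DMSO arrays for 33 of the 80 genes (41.2%, against 20.4% of all genes) and below them for 4 (5%, against 6.94%). The largest values were Atp5j2 (0.75, SE 0.34), Ndufa12 (0.69, SE 0.44) and Ndufb8 (0.67, SE 0.39), and the lowest Ndufs1 (-0.43, SE 0.55), Sdha (-0.35, SE 0.31) and Cox8b (-0.34, SE 0.20). The median moved with single arrays: it was 0.11 without KO DMSO number 2, 0.19 without KO TCDD number 1, 0.31 without KO TCDD number 2 and 0.38 without KO DMSO number 1.

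The difference between the 2 TCDD effects, KO minus WT, was tested as an interaction. It was called for 0 of 80 genes and for 0% of all genes (limma, adjusted p of 0.998 for the lowest of the 80), with 8 and 2.99% at an unadjusted p under 0.05. The value was positive for 62 genes, with a median of 0.32 (all genes 0.01 and 50.4% positive), and in complex I for 31 of 34 with a median of 0.44. Ndufa12 (1.13, SE 0.62), Atp5j2 (1.03, SE 0.48) and Ndufa8 (1.0, SE 0.45) had the largest values and Cox8b (-0.48, SE 0.28), Cox7c (-0.44, SE 0.39) and Sdha (-0.42, SE 0.44) the lowest. For Cyc1 it was 0.75 (SE 0.17), from -0.34 in WT and 0.42 in KO (SE 0.12 each). The median of the interaction was 0.18 without KO DMSO number 2, 0.47 without KO DMSO number 1 and 0.18 after another quantile normalization.

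The genotypes were also compared within each treatment, 2 arrays against 2. In DMSO, 39 of 80 genes read higher in KO (median -0.02), 0 were called (0% of all genes) and 10 had an unadjusted p under 0.05 (10.9% of all genes). The lowest values were Ndufc1 (-1.20) and Ndufs4 (-1.19). In TCDD, 55 read higher (median 0.18), 0 were called (0.0726% of all genes) and 29 had an unadjusted p under 0.05 (12.9% of all genes), with Atp5j2 at 1.36 and Ndufa12 at 1.23. The interaction above is the test of this difference and was not called for any of the 80 genes. These comparisons share arrays with those within each genotype, so their values are not independent.

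**Figure D5:**
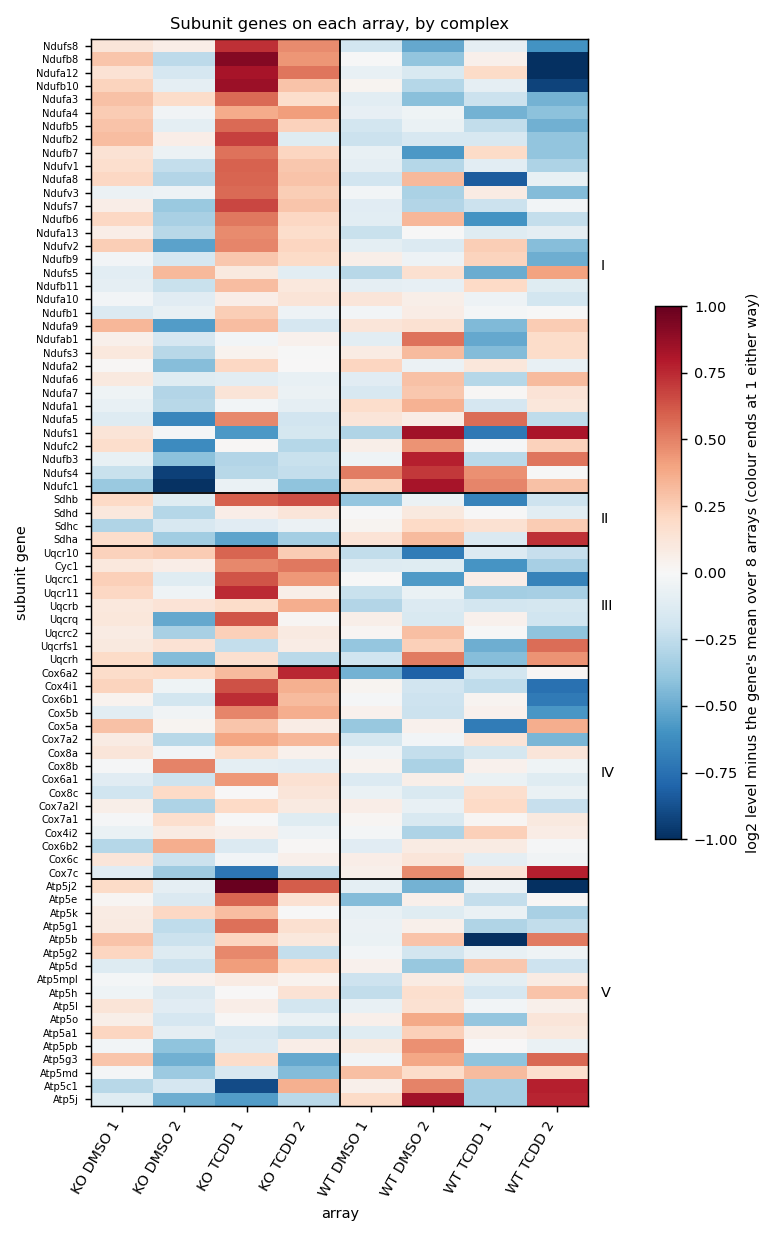
Log2 level of each of 80 subunit genes on each array minus the gene's mean over the 8 arrays, grouped by complex I to V and sorted within each by the KO minus WT difference; the colours end at 1 in either direction. KO TCDD number 1 is the array on which 36 genes are highest. The WT arrays numbered 2 show dark red for Ndufs1 and Atp5j, and WT TCDD number 2 shows dark blue for Ndufb8 and Atp5j2.

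Other genes of the pathway were taken from lists set with earlier results known. Of 34 measured assembly factors of the respiratory complexes, 0 rose and 1 fell in KO against WT (2.94%, against 3.24% of all genes), with 21 of 34 reading higher and a median of 0.12. The 1 that fell was Ndufaf4, which helps assemble complex I. It read 8.30, 8.26, 8.42 and 8.33 in KO and 8.96, 9.04, 8.76 and 8.70 in WT and fell by 0.54 (SE 0.09; limma, adjusted p = 0.0307). Of 15 genes of the citric acid cycle, 1 rose and 0 fell (median -0.17). This was Mdh2, the mitochondrial malate dehydrogenase, at 11.23, 11.12, 11.36 and 11.19 in KO and 10.63, 10.88, 10.71 and 10.93 in WT (difference 0.44, SE 0.09; limma, adjusted p = 0.0478). Of 29 genes of mitochondrial protein import, 0 rose and Timm8a1, a chaperone of the intermembrane space, fell by 0.69 (SE 0.12; limma, adjusted p = 0.0286; median of the list -0.02).

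Neither the 20 electron carriers and exchangers (10 higher, 10 lower, median 0.00) nor the 15 regulators of mitochondrial biogenesis held a called gene. Of the regulators, 11 of 15 read lower in KO, with a median of -0.21 and 6 (40%) lower at an unadjusted p under 0.05, beside a median of 0.01 and 11.6% lower at that p over all genes. After TCDD, 0 genes of these 5 lists were called in either genotype. The assembly factors read higher after TCDD in KO for 28 of 34 (median 0.09) and lower in WT for 29 of 34 (median -0.15), and the import genes higher in KO for 24 of 29 (0.12) and lower in WT for 24 of 29 (-0.16).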

How the data were processed

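The authors deposited log2 expression values that, per the submitters' processing notes, came from RMA (background correction, quantile normalization and summary per probe set) and affy. Their versions are not given in the sources used here. Per the labels' protocols, RNA was amplified before hybridisation. Of 22690 probe sets, 64 controls were left out and 22626 tested, with no filter on low values. Arrays have no read depth; their number limits the precision. Gene names came from the array annotation, and all 80 members matched RefSeq by Entrez identifier.

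Fits used limma 3.58.1 in R 4.3.3 (lmFit, eBayes, Benjamini-Hochberg over all tested probe sets, threshold 0.05). KO and WT were compared in a model of genotype alone, and the other 5 comparisons in a model of 4 group means. Fits were tested on simulated data. The members and lists were chosen with earlier results of these data known.

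Named were all called members, the 2 largest differences per direction and complex, members with another probe set called, the 3 largest TCDD and interaction values per direction, the Sdh genes, Cyc1 and the tissue forms of complex IV, and called list genes. Genes named for gaps between WT arrays, further members whose groups did not overlap and those with low unadjusted p were chosen after their values were seen. Alternatives changed the normalization, filter, variance model, weights, covariates, probe set, threshold and arrays used.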

Additional observations from a re-analysis of the deposited data

Results flagged for a closer look

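Among 76 sets of 4 arrays checked (the KO and WT values of 35 named genes and 3 array summaries), 4 had 1 array far from the others, where chance gives about 1 in 20. On KO DMSO number 2, Ndufs4 read 6.27 against 6.92 to 6.98 on the other KO arrays, Sdhd 6.96 against 7.31 to 7.36, and Cox8b 7.03 against 6.43 to 6.52. On KO TCDD number 1, Uqcr10 read 9.45 against 9.10 to 9.12, and it read above all WT arrays on each KO array.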

How the results depend on the processing

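The count of 4 members called between KO and WT became 7 with dim probe sets left out, 12 with array weights, 11 with the actin difference as covariate, 8 with each of the 151 probe sets counted, 12 at adjusted p under 0.1, 1 in the model of 4 group means, and 0 with trend and robust eBayes, at adjusted p under 0.01, without both WT arrays numbered 2, or from the DMSO or TCDD arrays alone. It was 4 with the replicate number as a block, 5 after another quantile normalization, and 3 after median centring or with probe sets averaged per gene. Leaving out 1 array gave 0 to 2. The share of all genes called also moved with the fit: it was 3.24% in the main fit and 0.137% without both WT arrays numbered 2. These counts therefore do not describe the members alone. The cause of these changes was not tested. In TCDD alone, the actin covariate raised the count from 0 to 7. For TCDD in WT, TCDD in KO, the interaction and KO against WT in DMSO, every alternative run gave 0. Signs turned for members not called: Cox4i2 (-0.003 with array weights, -0.11 without both WT arrays numbered 2, -0.004 with the actin covariate), Cox6b2 (0.005), Cox8c (-0.02), Ndufs1 (0.35) and Uqcrh (0.23), each without those WT arrays, Cox7a1 (-0.047 with weights, -0.01 without those arrays), Cox8b (-0.019 with weights) and Sdhd (-0.31 with probe sets averaged). With 1 array left out, the ranges that crossed 0 were -0.094 to 0.089 (Cox4i2), -0.145 to 0.072 (Cox6b2), -0.079 to 0.034 (Cox6c), -0.041 to 0.056 (Cox7a1), -0.002 to 0.198 (Cox8b) and -0.033 to 0.10 (Sdhd). The labels do not say that replicate numbers pair arrays. Differences between numbers 2 and 1 correlated across probe sets by 0.626 between the WT groups and 0.117 between the KO groups, and by -0.293 to 0.216 across genotypes. One block common to both genotypes changed no count of called members. With the number as a block within each genotype, chosen after seeing the data, 12 members were called between KO and WT (6 higher, 6 lower; 11.3% of all genes) and 7, all higher, in TCDD (2.09% of all genes). For TCDD in WT, TCDD in KO and the interaction, this block gave 0 called and 8, 24 and 19 members at an unadjusted p under 0.05 (5.16%, 4.39% and 5.54% of all genes).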
